A study of Mus musculus with 24 samples.

Results

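Loss of TFEB and TFE3 in melanoma cells that already lacked MITF was measured by comparing a triple knockout line (TKO, inactivated for Mitf, Tfeb and Tfe3) with its MITF KO counterpart. The comparison used 6 of the 24 libraries in the series, 3 of each line, chosen by genotype, and every one of the 12010 genes in the deposited table was tested. All 8 lines were B16F10-luc2, a mouse melanoma line that carries a luciferase reporter, and they were grown untreated in DMEM with 10% serum. The other lines were the parental cells, the TFE3 KO, the TFEB KO, the TFEB/TFE3 DKO (double knockout), the MITF/TFEB DKO and the MITF/TFE3 DKO. The MITF KO carries a frameshift in Mitf, and the study's text allows for a low level of truncated protein in it. Each genotype is represented by a single line, so the effect of a genotype and a difference between isolates cannot be told apart. Nothing in the labels says that the 3 libraries of a line came from separate cultures, and the p-values then measure only the spread between these libraries.

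MITF, TFEB and TFE3 are closely related basic helix-loop-helix leucine zipper transcription factors that bind as dimers to E-box elements in promoters. MITF is the lineage factor of melanocytes and is known for driving the melanin-making enzymes. TFEB and TFE3 are held in the cytoplasm by mTORC1 in fed cells and are best known for switching on genes of lysosomes and autophagy when nutrients run short.

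The sites cut to inactivate Tfeb and Tfe3 are shown first, because they set what the RNA reads can say about these genes. The labels give the guides as follows, with the adjoining PAM of the mm39 genome in capitals.
Tfeb guide (chr17:48097370-48097389, plus strand): tggacacgtactgtccacctCGG
Tfe3 guide (chrX:7631806-7631825, minus strand): cgtagaagctgtcaggatcgAGG
The Tfeb guide fell in exon 3 of 9 and the Tfe3 guide in exon 2 of 10, in both cases within coding sequence. The study's methods list another Tfe3 guide than the labels do, and which of them made these lines was not settled here. Libraries were made from the 3′ ends of transcripts, and the cut sites lay 5978 bases (Tfeb) and 9638 bases (Tfe3) upstream of the ends of the genes, so reads from these genes do not report on the edited sequence.

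Transcripts of all 3 targeted genes fell between the MITF KO and the TKO, without being lost. Tfeb (chr17:48047837-48103348) stood at 15.5, 22.7 and 16.8 CPM (reads scaled to library size) in the MITF KO libraries and at 3.10, 2.81 and 3.40 CPM in the TKO. Tfe3 (chrX:7628761-7641444) read 51.3, 54.2 and 49.5 CPM in MITF KO cells and 21.7, 19.9 and 17.6 CPM in TKO cells. Mitf (chr6:97783950-97998323), which is disrupted in both lines, read 1364, 1470.5 and 1358 CPM in MITF KO cells and 349.7, 326 and 329 CPM in TKO cells. In none of these genes did the TKO libraries overlap the MITF KO libraries. The log2 fold changes were -2.22 ± 0.18 (SE) for Tfeb, -1.35 ± 0.16 for Tfe3 and -2.06 ± 0.09 for Mitf, with adjusted p of 7.3e-10, 2.4e-07 and 2.9e-14 (limma). Across the other lines, Tfeb was lowest in those where it was targeted, at 2.88 ± 0.809 CPM (SD, n = 3) in the TFEB KO, 3.19 ± 0.619 CPM in MITF/TFEB DKO cells and 5.12 ± 0.171 CPM in TFEB/TFE3 DKO cells, against 8.80 ± 1.34 CPM in parental cells. Tfe3 was likewise lower in its targeted lines than the parental 37.1 ± 1.56 CPM. MITF/TFE3 DKO cells stood at 8.63 ± 0.970 CPM. TFE3 KO cells had 10.8 ± 2.03 CPM, and TFEB/TFE3 DKO cells 11.3 ± 3.19 CPM. The TKO kept more Tfe3 RNA than these targeted lines, at 19.8 ± 2.09 CPM. Every TKO library lay above every library of theirs. The fourth family member, Tfec, was not among the genes of the table.

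Transcripts of the melanocytic lineage factors were present in both lines. Sox10, a neural crest factor, read 779, 787 and 796 CPM in MITF KO cells and 1036, 994 and 988 CPM in TKO cells, and Pax3 read 292, 243 and 272 CPM and 231, 238 and 238 CPM. Of 20 markers of leukocytes, endothelium, epithelium and fibroblasts, 3 were in the table and the leukocyte and fibroblast markers were not. The summed level of those 3 was 2.45 to 3.05 CPM in MITF KO cells and 16.4 to 19.95 CPM in the TKO. Almost all of that sum in the TKO was Krt14, a basal epithelial keratin, at 16.9, 16.1 and 19.3 CPM against 0.0942, 0.161 and 0 CPM, while Cdh1 (E-cadherin) read 2.26, 2.37 and 2.997 CPM in MITF KO cells and 0.838, 0.285 and 0.473 CPM in TKO cells. The endothelial marker Pecam1 was at 0.0942, 0.482 and 0.0545 CPM and 0, 0 and 0.215 CPM. In bulk RNA, fewer cells expressing a gene and less of its RNA per cell cannot be told apart.

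Reads on genes ranged from 18300902 to 26667877 per library across the series. Replicate 2 of the MITF KO stood apart from the others of its line, with a chi-square per degree of freedom of 14.5 and 15.8 against replicates 1 and 3, where those differed from each other by 5.92 and the TKO libraries differed by 4.61 to 8.14. Where a named gene loses its call without it, the value without it is also given.

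Between the TKO and the MITF KO, 760 genes were upregulated (6.33% of those tested) and 545 were downregulated (4.54%), taking a change of 2-fold or more with p under 0.05. Of these, 751 and 545 also passed an adjusted p under 0.05, and 103 and 86 changed at least 4-fold. The median over all genes was 0.03 on the log2 scale. Library ranges of the called genes did not overlap, which held as well for 65.5% of all genes tested. Counts of called or non-overlapping members of the gene lists below are to be read against these shares. Fold changes are of log2(CPM + 1) and understate changes of genes at low levels.

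The genes that fell furthest were close to silent in the TKO. Lgals3 (chr14:47605208-47623624), which encodes galectin-3, a sugar-binding protein recruited to damaged lysosomes, read 242, 276 and 243 CPM in MITF KO cells and 0, 0 and 0.0430 CPM in TKO cells, where a single read was left in the 3 libraries. Fam111a (chr19:12523104-12567134), a protease gene, read 49.4, 46.2 and 54.3 CPM in MITF KO cells and had no read in the TKO, which puts it at least 393-fold lower when each TKO library is set at a floor of 3 reads. Ly6g5c, at 9.74, 13.6 and 10.7 CPM in the MITF KO, also had no read in the TKO and was at least 89.4-fold lower. All 3 genes were likewise near 0 in the MITF/TFEB DKO, at 0.190 ± 0.0966 CPM for Lgals3, 1.11 ± 0.464 CPM for Fam111a and 0.382 ± 0.251 CPM for Ly6g5c, and not in the MITF/TFE3 DKO, at 101 ± 8.58, 46.8 ± 3.12 and 19.9 ± 1.73 CPM.

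Several enzymes and signalling genes fell by more than 10-fold. Car14 (chr3:95805079-95812646), a membrane carbonic anhydrase, read 350.2, 373 and 358 CPM in MITF KO cells and 2.84, 2.996 and 3.66 CPM in TKO cells, a log2 fold change of -6.44 ± 0.12 (adjusted p 1.8e-21). Hpgds, the haematopoietic prostaglandin D synthase, went from 53.1, 58.6 and 57.6 CPM to 0.474, 0.808 and 0.731 CPM, a change of -5.11 ± 0.12. Eps8, an actin-capping adaptor of receptor tyrosine kinases, went from 209, 219.6 and 214 CPM to 6.01, 8.61 and 7.53 CPM, a change of -4.69 ± 0.12. In each of these genes every TKO library lay far below every MITF KO library. The nuclear receptor gene Nr4a3 fell from 29.8, 33.7 and 33.6 CPM to 1.71, 1.14 and 1.46 CPM (-3.78 ± 0.16). Prss12, a serine protease gene, fell from 13.8, 14.5 and 14.5 CPM to 0.219, 0.618 and 0.215 CPM (-3.51 ± 0.14). The other 4 of the 12 largest falls belonged to gene groups described further on, namely Tspan10, Trpm1 and Tyr of the melanosome and Trib3 of the ATF4 response.

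The largest rises came from genes barely read in the MITF KO. Adamtsl1 (chr4:85432409-86346622), a secreted matrix protein of the ADAMTS-like family, read 0, 0.442 and 1.25 CPM in MITF KO cells and 57.3, 62.6 and 59.4 CPM in TKO cells, a log2 fold change of 5.36 ± 0.21 (adjusted p 1.7e-15). Sorbs2 (chr8:45960540-46282007), an adaptor of actin stress fibres, went from 1.79, 1.08 and 1.96 CPM to 99.6, 102 and 103 CPM (5.31 ± 0.16). Gal3st2, a sulphotransferase gene, went from 0.942, 0.643 and 1.31 CPM to 60.3, 63.4 and 52.9 CPM (4.94 ± 0.15). The 3 TKO libraries agreed closely in each of these. Apln, which encodes the vascular peptide apelin, rose from 0.612, 0.0803 and 0.327 CPM to 28.9, 27.9 and 29.8 CPM (4.50 ± 0.16). Cebpd, a C/EBP transcription factor gene, rose from 1.69, 2.97 and 2.78 CPM to 64.4, 65.3 and 67.3 CPM (4.28 ± 0.21). Siglecg, a sialic acid-binding receptor gene, rose from 0.235, 1.12 and 0.272 CPM to 29, 28.9 and 25.3 CPM (4.26 ± 0.18). A similar size of change was seen for Pmp2, a myelin lipid-binding protein of Schwann cells, at 1.37, 0.161 and 0.817 CPM and 26.2, 34 and 25.7 CPM (4.11 ± 0.21), and for Krt14 (4.09 ± 0.13). Capn6, a calpain family member, had 5 reads in the 3 MITF KO libraries together and read 14.97, 16.2 and 17.1 CPM in the TKO, and no fold is given for it. Cp (chr3:20011090-20063930), the copper-carrying ferroxidase ceruloplasmin, was the member of this group already well expressed in the MITF KO, at 35.4, 38.6 and 42.8 CPM, and it reached 547, 548 and 565 CPM in the TKO (3.80 ± 0.14).

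**Figure D1:**
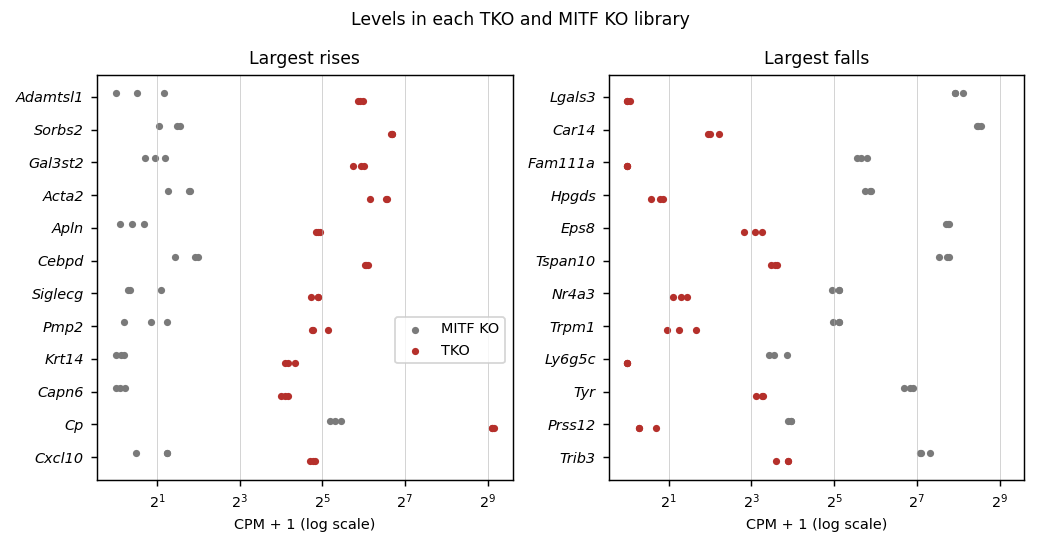
Levels of the 12 genes with the largest rises and the 12 with the largest falls in the 3 TKO and 3 MITF KO libraries (x axis, CPM + 1 on a log scale; each point is a library). For every gene the TKO points (red) and the MITF KO points (grey) lie apart, and Lgals3, Fam111a and Ly6g5c sit at or next to 0 CPM in the TKO.

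Most of the leading rises were also seen in the MITF/TFEB DKO and were small or absent in the MITF/TFE3 DKO, when levels are set side by side. Sorbs2 read 110.4 ± 7.07 CPM in MITF/TFEB DKO cells, 0.830 ± 0.0729 CPM in MITF/TFE3 DKO cells and 101 ± 1.61 CPM in the TKO. Gal3st2 read 60.4 ± 4.81, 1.09 ± 0.481 and 58.9 ± 5.41 CPM in the same order. Cp and Cxcl10 behaved otherwise. Cp read 222 ± 18.2 CPM in MITF/TFEB DKO cells and 158 ± 14.2 CPM in MITF/TFE3 DKO cells, both between the MITF KO and the TKO. Cxcl10, an interferon-stimulated gene, read 116 ± 15.3 CPM and 26.9 ± 0.277 CPM in these lines, against 26.3 ± 1.15 CPM in the TKO. All 3 comparisons share the MITF KO libraries.

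The pigment genes moved together. Of 18 measured genes for melanin enzymes and the melanosome matrix, 15 were downregulated in the TKO, none rose, and the median log2 fold change was -1.61, against 4.54% of all genes called down and a median of 0.03. Tyr (chr7:87073979-87142720), which encodes tyrosinase, the rate-limiting enzyme of melanin synthesis, read 102, 118 and 113 CPM in MITF KO cells and 8.78, 7.66 and 8.60 CPM in TKO cells, a log2 fold change of -3.59 ± 0.15 (adjusted p 3.1e-15). Tspan10, a tetraspanin gene of pigment cells, went from 183, 217 and 212 CPM to 10.1, 10.8 and 11.2 CPM (-4.13 ± 0.11). Trpm1, a cation channel gene whose intron hosts miR-211, went from 30.3, 33.6 and 33.5 CPM to 0.947, 1.38 and 2.15 CPM (-3.77 ± 0.20). No TKO library reached the lowest MITF KO library in any of them. Slc45a2, a transporter that sets melanosome pH, fell from 354, 336 and 361 CPM to 51.9, 42.4 and 50.2 CPM (-2.84 ± 0.09).

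The remaining pigment genes fell by smaller steps and stayed abundant. Pmel, the fibril protein of the melanosome, read 3487, 3171 and 3921 CPM in MITF KO cells and 527, 544 and 583 CPM in TKO cells (-2.67). Tyrp1, a melanin synthesis enzyme gene, read 3834, 3400.4 and 4145 CPM and 1074, 1063 and 1099 CPM (-1.81). Dct, which encodes dopachrome tautomerase, read 28565, 29029 and 29472 CPM and 12750.0, 12715 and 13662 CPM (-1.15), and it stayed among the abundant transcripts. Log2 fold changes were -2.12 for Slc24a5, -1.89 for Slc24a4, -1.86 for Mc1r, the melanocortin receptor gene, -1.41 for Mlana, -1.40 for Gpnmb, -1.29 for Gpr143, -1.15 for Oca2 and -1.05 for Mreg. The 3 members not called were Mfsd12 (-0.23), Atp7a (0.06) and Kit, which was at 0, 0.0402 and 0.109 CPM in MITF KO cells and without reads in the TKO. Summed over the list, levels were 46384 to 48633 CPM in MITF KO cells and 18064 to 19189 CPM in the TKO, which do not overlap.

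The promoters of these genes were searched for the letters that the MiT family is known to bind. CATGTG, the core of the melanocyte M-box, stood on either strand within 250 bases upstream of the transcription start in 7 of the 18 genes (38.9%), against 7.48% of the 11661 promoters examined. CACGTG, the palindromic E-box, was in 3 of the 18 (16.7%), against 7.97% of all. Either motif was in 10 of the 18 (55.6%) and in 14.8% of all promoters. Slc45a2, Pmel, Slc24a5, Gpnmb, Oca2 and Mreg, which were also downregulated, held neither within these 250 bases. Among called genes in general the share with either was 17.0% of the 517 downregulated and 15.6% of the 745 upregulated promoters. The sites of Tyr, Tyrp1 and Dct and of 4 further members read as follows on the strand of the gene (mm39, GENCODE transcription starts), with the motif or its reverse complement CACATG in capitals.
Tyr (chr7:87142724-87142753, minus strand): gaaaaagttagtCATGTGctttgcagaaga
Tyrp1 (chr4:80752392-80752421, plus strand): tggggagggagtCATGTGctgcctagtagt
Dct (chr14:118289791-118289820, minus strand): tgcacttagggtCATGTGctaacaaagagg
Tspan10 (chr11:120333424-120333453, plus strand): aatgtgactcctCACATGataccactgtga
Gpr143 (chrX:151564627-151564656, plus strand): catctcgggcatCACATGaagatgtcacag
Trpm1 (chr7:63834966-63834995, plus strand): agtaattggaagCACGTGgctcctcttcct
Slc24a4 (chr12:102094881-102094910, plus strand): aggggaggtgtaCACGTGcaggggaggggg
The motif lay 21 to 16 bases before the start of Tyr and 38 to 33 bases before that of Tyrp1. A match describes the sequence alone, and occupancy by any factor was not measured in these libraries.

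Genes that build and move melanosomes were called less often than the pigment genes. Of 29 measured, 3 were downregulated, a larger share than the 4.54% of all genes, and 1 was upregulated, with a median of -0.29. Rab27a, the small GTPase that tethers melanosomes to actin, read 58.1, 54.3 and 51.9 CPM in MITF KO cells and 10.4, 10.6 and 8.90 CPM in TKO cells (-2.35 ± 0.14). Rab17 fell from 93.7, 103 and 91.6 CPM to 33.8, 32.8 and 32.4 CPM (-1.51 ± 0.12) and Lyst, the Chediak-Higashi gene, from 11.5, 13.5 and 12.5 CPM to 6.85, 4.66 and 4.43 CPM (-1.12 ± 0.28). Rab32, a GTPase of melanosome cargo sorting, read 18.03, 14.9 and 17.98 CPM and 33.5, 37.2 and 39.6 CPM (1.07 ± 0.17), and its change was 0.99 without MITF KO replicate 2.

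Genes of the ATF4 response and amino acid supply fell as a group. None of the 41 measured was upregulated and 17 were downregulated, with a median of -0.73. Trib3, a pseudokinase gene induced by amino acid shortage, read 137, 159 and 133 CPM in MITF KO cells and 13.8, 13.8 and 11.1 CPM in TKO cells (-3.37 ± 0.12, adjusted p 4.0e-16). Chac1, which encodes a glutathione-degrading enzyme, went from 120.4, 126 and 120.4 CPM to 15.5, 15.1 and 15.8 CPM (-2.91 ± 0.10). Ddit3, the CHOP transcription factor gene, went from 440.0, 532 and 439 CPM to 83.2, 77.6 and 77.1 CPM (-2.55 ± 0.11). The TKO libraries lay below the MITF KO libraries in 34 of the 41 members and above them in 2, where 65.5% of all genes did not overlap. Gdf15, a stress cytokine gene, fell from 5.56, 6.75 and 4.79 CPM to 0.146, 0 and 0.473 CPM (-2.48 ± 0.22). The cystine transporter gene Slc7a11 fell from 9.65, 9.40 and 8.99 CPM to 0.401, 1.19 and 1.46 CPM (-2.40 ± 0.21). Atf4 itself fell by less, from 1396, 1619.9 and 1351 CPM to 489, 458 and 444 CPM (-1.64 ± 0.12), and so did Asns, the asparagine synthetase gene, at -1.04. The summed level of the list was 9757 to 10483 CPM in MITF KO cells and 5201 to 5239 CPM in the TKO.

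Chaperones and the wider unfolded protein response did not share that fall. A single gene of 38 was called, Herpud1, an ER-associated degradation factor, which fell from 189, 205 and 208 CPM to 91.8, 91.6 and 89.7 CPM (-1.13 ± 0.08), and the median of the list was 0.07. For the cytosolic aminoacyl-tRNA synthetases, 2 members were found under the symbols searched, Eprs (-0.23) and Mars1 (-0.17), neither called. Sars, the seryl-tRNA synthetase gene, was counted in the ATF4 list instead and was called down.

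Lysosomal genes, the group for which TFEB and TFE3 are best known, had small median changes and calls that were mostly downward. Of 52 measured hydrolases and activators, 4 were downregulated and 2 upregulated, with a median of -0.16. Over all genes 4.54% were called down and 6.33% up, with a median of 0.03. Ctsa, the protective cathepsin A, read 119.9, 114 and 124 CPM in MITF KO cells and 44.4, 46.98 and 46.96 CPM in TKO cells (-1.35 ± 0.08), and the carboxypeptidase gene Scpep1 read 354, 379 and 359 CPM and 178, 168 and 166 CPM (-1.09 ± 0.11). Neu1 (-1.05) and Gla (-1.01), which encode a sialidase and a galactosidase, were the others that fell, and 2 hydrolases were called down without TKO replicate 3. Ctso, a cathepsin gene, rose from 0.0942, 0.0402 and 1.04 CPM to 4.74, 3.71 and 4.21 CPM (1.98 ± 0.26). Psap, which encodes the saposin precursor, read 536, 270.4 and 686 CPM in MITF KO cells and 898, 965 and 1090.3 CPM in TKO cells (1.08 ± 0.31), with replicate 2 of the MITF KO the lowest, and its change was 0.69 without that library.

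The proton pump and the lysosomal membrane had a few genes called down and none called up. Among 19 measured V-ATPase subunits 3 were downregulated, a larger share than the 4.54% of all genes, with a median of -0.40. Atp6v1d went from 426, 469 and 414 CPM to 142, 143 and 137 CPM (-1.62 ± 0.10), Tcirg1 from 142, 143 and 159 CPM to 59.5, 58.7 and 60.6 CPM (-1.29 ± 0.12), and Atp6v0b from 489, 549 and 491 CPM to 254, 254 and 234 CPM (-1.04 ± 0.12). The summed level of the subunits was 5693 to 5961 CPM in MITF KO cells and 4163 to 4374 CPM in the TKO. Of 35 measured lysosomal membrane genes 4 were downregulated, also above the share of all genes, with a median of -0.16. TKO libraries lay below the MITF KO libraries in 14 of them and above in 10, where 65.5% of all genes did not overlap. Their summed level was slightly higher in the TKO, at 5491 to 5746 CPM against 5204 to 5486 CPM. Hgsnat, a heparan sulphate acetyltransferase gene, fell from 409.8, 447 and 442 CPM to 179.6, 167 and 169 CPM (-1.33 ± 0.11). The channel genes Tpcn1 (-1.22 ± 0.14) and Tmem175 (-1.19 ± 0.14) and the cystine exporter gene Ctns (-1.08 ± 0.17) were the others. Several of these genes lie in stretches whose neighbours fell too, with a neighbour median of -0.43 for Tcirg1 and -0.37 for Tpcn1, and with it subtracted 1 membrane gene and 2 hydrolase genes were called down.

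Autophagy genes were called down in 2 of 54 and called up in none, with a median of -0.14. Tecpr1, a tethering factor of lysosome repair and autophagosome fusion, stood out, at 563, 557 and 565 CPM in MITF KO cells and 122, 115 and 122 CPM in TKO cells (-2.22 ± 0.08, adjusted p 2.1e-16). Optn, a cargo receptor gene, went from 19.1, 26.5 and 20.2 CPM to 8.74, 9.89 and 10.4 CPM (-1.09 ± 0.16), and its change was -0.95 without MITF KO replicate 2. In the nutrient-sensing circuit of folliculin, Rag GTPases and mTORC1, 4 of 37 genes were downregulated and none rose (median -0.24). Rragd, a Rag GTPase gene, fell from 29.3, 26.3 and 29.1 CPM to 8.78, 7.04 and 9.20 CPM (-1.65 ± 0.16). Sesn2, a leucine sensor gene, fell from 9.51, 13.8 and 10.6 CPM to 3.10, 2.85 and 2.24 CPM (-1.71 ± 0.23). The mTOR inhibitor genes Deptor (-1.29 ± 0.12) and Ddit4 (-1.03 ± 0.16) were the others called.

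Among mitochondrial regulators, Ppargc1a was the single gene of 19 called. Ppargc1a (chr5:51611592-51725068), which encodes PGC-1α, a coactivator that promotes mitochondrial biogenesis, read 344, 343 and 309 CPM in MITF KO cells and 46.1, 46.4 and 48.2 CPM in TKO cells (-2.80 ± 0.12, adjusted p 1.3e-14). Of 81 respiratory chain and ATP synthase subunits 6 were downregulated and 3 upregulated, while the median was -0.26. The TKO libraries lay below the MITF KO libraries in 48 of the 81 and above them in 11. Over all genes, 65.5% did not overlap in either direction. Ndufv3, a complex I subunit gene, fell from 484, 487 and 466 CPM to 203, 195 and 197 CPM (-1.27 ± 0.11). The summed level of the subunits was 34412 to 35643 CPM in MITF KO cells and 27269.8 to 28105 CPM in the TKO. Ndufa1 (1.54 ± 0.39), Sdhc (1.40 ± 0.37) and Cox7c (1.32 ± 0.63) were called up, and for Cox7c the adjusted p was 0.086 and the change 0.95 without MITF KO replicate 2. With neighbour medians subtracted 3 subunits were called down and 1 up, and Sdhc changed by 0.92.

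Glycolysis and hypoxia genes leaned downward, with 10 of 44 downregulated, 2 upregulated and a median of -0.26. Vegfa, the angiogenic factor gene, went from 39.9, 52.8 and 48.3 CPM to 15.8, 17.02 and 12.9 CPM (-1.56 ± 0.16). Car9, the hypoxia-marker carbonic anhydrase gene, went from 2.50, 2.25 and 3.92 CPM to 0.364, 0.523 and 0.645 CPM (-1.34 ± 0.32). Pgam1, a glycolytic mutase gene on chromosome 19, went from 54.1, 67.1 and 51.3 CPM to 20.8, 19.3 and 16.8 CPM (-1.55 ± 0.20), and its neighbours had a median of -0.69. Eno1, an enolase gene, rose from 20.6, 14.4 and 16.02 CPM to 37.8, 50.7 and 65.8 CPM (1.52 ± 0.56). It also varied widely between libraries of another line, at 17.4, 99.9 and 35.3 CPM in the TFEB KO. After subtraction of the neighbour medians 4 genes of the list were called down.

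Lipid and sterol genes changed in few places. Hsd17b7, a cholesterol synthesis enzyme gene, was the member of 27 sterol genes that was called, at 20.6, 18.9 and 20.2 CPM in MITF KO cells and 61.1, 63.4 and 60.2 CPM in TKO cells (1.58 ± 0.13), while the list median was 0.41. Among 27 genes of fatty acid synthesis 2 rose and 3 fell (median 0.04). Srebf1, a master regulator of lipid synthesis, rose from 5.79, 3.74 and 7.41 CPM to 13.4, 20.7 and 18.8 CPM (1.51 ± 0.40) and Dgat2 by 1.07 on the log2 scale, and Scd1, the stearoyl-CoA desaturase gene, fell from 20.6, 21.6 and 23.6 CPM to 7.07, 8.75 and 8.99 CPM (-1.31 ± 0.13). Acacb (-1.27) and Gpam (-1.03) were the others that fell, and none of the 3 falls was called after subtraction of the neighbour medians.

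**Figure D2:**
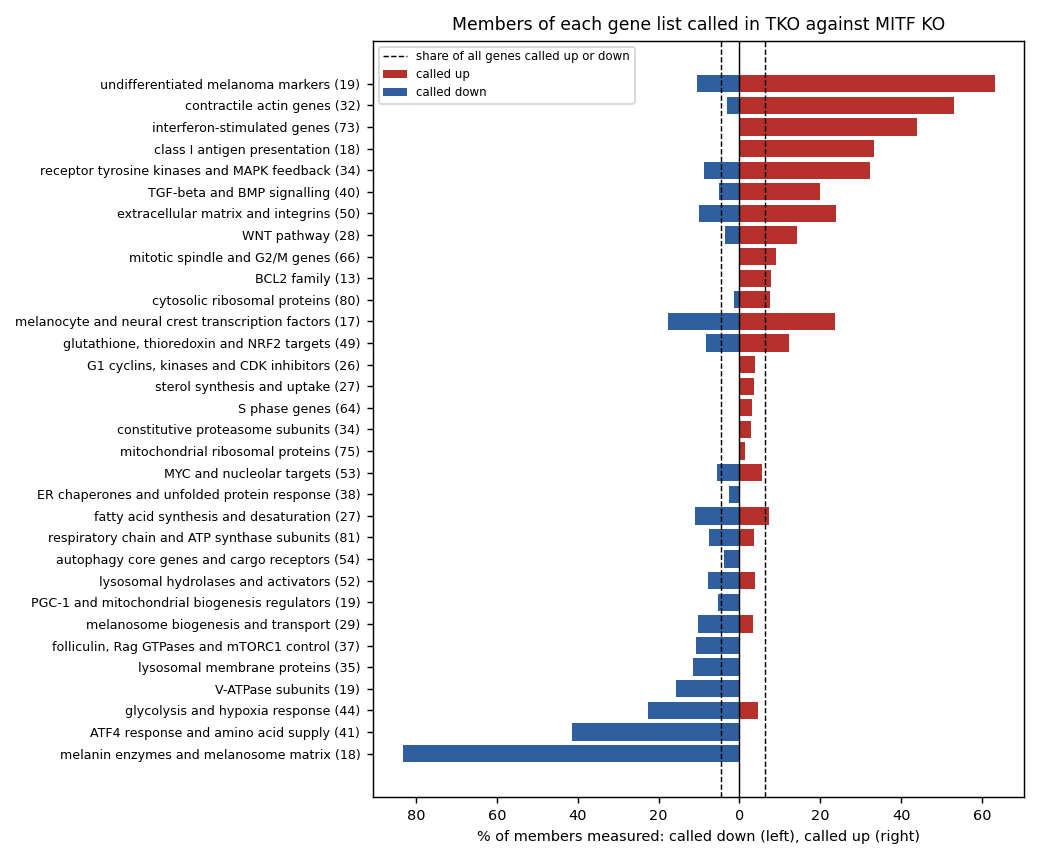
Share of the measured members of each gene list that was called up (right, red) or down (left, blue) in the TKO against the MITF KO, with the number measured in parentheses; dashed lines mark the shares of all genes, 6.33% up and 4.54% down. Melanin genes (15 of 18 down) and ATF4 response genes (17 of 41 down) stand at the bottom, and undifferentiated melanoma markers (12 of 19 up), contractile actin genes (17 of 32 up) and interferon-stimulated genes (32 of 73 up) at the top.

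Most genes listed as markers of undifferentiated melanoma rose in the TKO, where the lineage factor gene Sox10 was also higher. Of 19 measured 12 were upregulated and 2 downregulated, with a median of 1.34. Fn1 (chr1:71624673-71692419), which encodes fibronectin, read 25.2, 19 and 24.4 CPM in MITF KO cells and 273, 292 and 295 CPM in TKO cells (3.60 ± 0.20, adjusted p 9.7e-13). The matricellular genes Ccn2, at 1.18, 0.602 and 1.04 CPM and 14.1, 21.1 and 24.5 CPM (3.41 ± 0.45), and Ccn1, at 4.002, 4.82 and 4.36 CPM and 37.4, 48.8 and 51.99 CPM (3.12 ± 0.24), are known targets of YAP and TEAD. TKO libraries exceeded every MITF KO library in 14 of the 19 members and lay below them in 2, where 65.5% of all genes did not overlap. Smaller rises were measured for Nes (1.68), Nuak1 (1.55), Tead1 (1.54), Axl, a receptor tyrosine kinase gene (1.38), Vim (1.34), Cdh2 (N-cadherin, 1.10) and Erbb3 (1.02). Ngfr (-1.87), the neural crest nerve growth factor receptor gene, and Met (-1.48), the hepatocyte growth factor receptor gene, went the other way.

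Melanocyte and neural crest transcription factor genes were split. Of 17 measured 4 rose and 3 fell (median 0.29). Id2, an inhibitor of helix-loop-helix factors, fell from 509.5, 539 and 481 CPM to 66.4, 60.9 and 66.01 CPM (-2.96 ± 0.12), whereas Id3, its paralogue, rose from 7.53, 3.29 and 6.86 CPM to 28.4, 29.9 and 44.3 CPM (2.39 ± 0.38). Etv5, an ETS factor gene induced by MAPK signalling, rose from 0.330, 1.12 and 1.31 CPM to 6.16, 6.80 and 6.62 CPM (2.01 ± 0.20). Sox9 fell (-1.06) beside Mitf, and Sox4 (1.39) and Tfap2b (1.03) rose.

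Contractile actin genes were upregulated in 17 of 32 cases and downregulated in 1, with a median of 1.03. Acta2 (chr19:34217737-34232990), smooth muscle actin, read 2.50, 2.41 and 1.42 CPM in MITF KO cells and 92.1, 93.96 and 70.6 CPM in TKO cells (4.81 ± 0.17, adjusted p 3.6e-16), although its neighbours on chromosome 19 had a median of -0.65. Cnn2, a calponin gene, rose from 76.7, 61.9 and 77.1 CPM to 434, 500.1 and 492 CPM (2.71 ± 0.16). Among the others were the tropomyosin genes Tpm4 (1.92) and Tpm1 (1.16), the filamin gene Flna (1.77), Actn4 (1.68), Zyx (1.63), Vcl (1.38) and Myh9 (1.06), all of stress fibres and focal adhesions. Tagln2, a transgelin gene, fell from 33.8, 25.1 and 24.7 CPM to 4.30, 5.99 and 4.34 CPM (-2.29 ± 0.23). Summed over the list, levels were 5655 to 5736 CPM in MITF KO cells and 12857 to 12918 CPM in the TKO.

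Extracellular matrix and integrin genes changed in both directions, with 12 of 50 up, 5 down and a median of 0.46. Beside Fn1, Thbs1, a thrombospondin gene that activates latent TGF-beta, rose from 0.565, 0.161 and 0.545 CPM to 4.55, 7.51 and 3.78 CPM (2.11 ± 0.25). Mmp19, a matrix metalloprotease gene, had 1 read in the MITF KO and read 2.91, 4.33 and 4.34 CPM in the TKO. Postn, which encodes periostin, fell from 10.3, 10.5 and 9.48 CPM to 1.09, 1.28 and 0.645 CPM (-2.48 ± 0.21), and Itgb3 fell as well (-2.07) while Itga5, a fibronectin receptor subunit gene, rose (1.48). Fewer of these rises, 7, were called among genes with a mean of at least 5 CPM.

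TGF-beta and BMP genes rose in 8 of 40 and fell in 2 (median 0.46). Among the ligands Tgfb3 (1.89) and Tgfb2 (1.24) rose, and so did the receptor gene Acvr1 (1.56) and the decoy receptor gene Bambi (1.98). Pmepa1, a feedback inhibitor of the pathway, fell from 61.2, 67.6 and 61.1 CPM to 8.34, 9.27 and 8.90 CPM (-2.71 ± 0.12), so its inhibitors went in opposite directions.

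Receptor tyrosine kinase and MAPK feedback genes were called up in 11 of 34 and down in 3, with a median of 0.34. Ephb2, an ephrin receptor gene, rose from 1.88, 1.85 and 1.96 CPM to 12.5, 13.8 and 13.5 CPM (2.30 ± 0.17). Dusp6, an ERK phosphatase gene, rose from 31.97, 20.5 and 34.5 CPM to 107, 106 and 111 CPM (1.90 ± 0.23), whereas Dusp4, another, fell from 15.8, 20.6 and 15.3 CPM to 3.97, 3.99 and 3.83 CPM (-1.88 ± 0.12). In the WNT pathway 4 of 28 rose and 1 fell (median 0.01). Fzd2, a WNT receptor gene, rose from 14.3, 12.7 and 17.3 CPM to 63.7, 62.2 and 65.7 CPM (2.05 ± 0.17). Of the corepressor genes, Tle3 rose (1.77 ± 0.15) and Tle4 fell (-1.44 ± 0.15), and the R-spondin receptor gene Lgr4 rose (1.66 ± 0.22).

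Interferon-stimulated genes were upregulated in 32 of 73 and downregulated in none, with a median of 0.87. Cxcl10 (chr5:92494497-92496748), a T cell chemokine gene, read 1.37, 0.402 and 1.36 CPM in MITF KO cells and 27.4, 25.1 and 26.4 CPM in TKO cells (3.78 ± 0.19, adjusted p 1.0e-13). Gbp2, a guanylate-binding protein gene, rose from 1.55, 2.13 and 1.80 CPM to 26.2, 29.7 and 25.9 CPM (3.32 ± 0.13), and Isg15, a ubiquitin-like modifier gene, from 6.07, 5.10 and 4.74 CPM to 35.9, 39.7 and 37.3 CPM (2.62 ± 0.26). Both lines were low for Isg15, which read 629 ± 153 CPM in parental cells and 339 ± 122 CPM in TFEB/TFE3 DKO cells. The summed level of the 73 genes was 572 to 582 CPM in MITF KO cells and 1364 to 1453 CPM in the TKO. The count of calls was 51 in edgeR on recovered reads and 15 with a pseudocount of 5.

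Class I antigen presentation genes were called up in 6 of 18 and called down in none (median 0.56). TKO libraries lay above the MITF KO libraries in 12 members and below them in 4, where 65.5% of all genes did not overlap. The summed level of the list did not rise, at 3325 to 3539 CPM in MITF KO cells and 3186 to 3356 CPM in the TKO. H2-D1, a class I heavy chain gene, read 17.3, 16.99 and 24.5 CPM in MITF KO cells and 103, 113 and 126 CPM in TKO cells (2.50 ± 0.18). Psme2, a proteasome activator gene, rose from 23.6, 17.4 and 21.2 CPM to 74.2, 68.8 and 73.7 CPM (1.76 ± 0.15). The trimming peptidase gene Erap1 (1.43 ± 0.17), the class I transactivator gene Nlrc5 (1.41 ± 0.13), and Tap1 (1.05) and Tapbp (1.07) of the peptide-loading complex made up the rest. Reads of class I heavy chains, guanylate-binding proteins, the Apol9 genes and the Ifi200 family can be shared between near-identical copies, and single members of these families are uncertain.

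Cell cycle genes changed modestly. Of 66 mitotic spindle and G2/M genes 6 were upregulated and none was called down, with a median of 0.36. The TKO exceeded the MITF KO in every library for 46 of them and lay below it for 10, where 65.5% of all genes did not overlap. Cdk1, the mitotic kinase gene, read 381, 244 and 423 CPM in MITF KO cells and 762, 834 and 865 CPM in TKO cells (1.27 ± 0.20), and Gtse1 read 9.51, 5.46 and 10.03 CPM and 21.1, 34.7 and 40.8 CPM (1.82 ± 0.63). In these and in Ncaph (1.08 ± 0.32) MITF KO replicate 2 was the lowest library, and the change of Ncaph was 0.93 without it. Kif20a rose by 1.08 ± 0.14. Of 64 S phase genes Mcm4 (1.41 ± 0.41) and Exo1 (1.23 ± 0.15) were called up and none down (median 0.12). Mcm4 and Gtse1 also varied widely within other lines. Mcm4 read 40.4, 109 and 44.3 CPM in the TFEB KO, and Gtse1 13.4, 77.9 and 58.9 CPM in the TFE3 KO. The CDK inhibitor gene Cdkn1c, at 7.96, 3.65 and 5.67 CPM and 18.8, 24.1 and 23.05 CPM (1.81 ± 0.21), was the call among 26 G1 genes (median 0.24). The list of MYC and nucleolar targets, which also holds regulator genes such as Mxi1 and Bhlhe41, had 3 calls in each direction among 53 (median -0.04). Bhlhe41, a circadian repressor gene, fell (-1.51 ± 0.10), as did the MYC antagonist gene Mxi1 (-1.18 ± 0.12) and Rrp1b (-1.10 ± 0.12), and the nucleolar methyltransferase gene Fbl rose (1.08 ± 0.09). With neighbour medians subtracted no member of this list was called up and 1 was called down, and Mxi1 (-0.62), Rrp1b (-0.93) and Fbl (0.80) were then under 2-fold.

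Few genes of the protein synthesis and degradation machinery were called. Cytosolic ribosomal protein genes rose in 6 of 80 and fell in 1 (median -0.03), and without MITF KO replicate 2, which had the lowest Rpl39, Rps23 and Rpl35a of its line, 2 rose. With neighbour medians subtracted 3 rose. Rpl39 read 207, 131 and 198 CPM in MITF KO cells and 461, 537 and 568 CPM in TKO cells (1.57 ± 0.35), Rps23 179, 82.5 and 179 CPM and 309.9, 392 and 453 CPM (1.45 ± 0.51; 1.09 and not called without MITF KO replicate 2), and Rpl35a changed by 1.24 ± 0.41. Rpl22l1, a ribosomal protein paralogue gene, fell from 111, 69.1 and 100.4 CPM to 31.2, 34.8 and 33.2 CPM (-1.44 ± 0.17). Of 75 mitochondrial ribosomal proteins Mrps21 was called up (1.08 ± 0.39; median -0.13), and of 34 proteasome subunits Psma5 was (1.18 ± 0.37; median -0.02). Neither was called without MITF KO replicate 2, at 0.84 and 0.97. Glutathione, thioredoxin and NRF2 target genes rose in 6 of 49 and fell in 4 (median -0.02), and 3 rose without TKO replicate 3 and 2 with neighbour medians subtracted. Prdx6, a peroxiredoxin gene, rose from 375, 405 and 388 CPM to 1093, 1023 and 1024 CPM (1.42 ± 0.09) in a stretch whose neighbour median was 0.48. Gpx4 (1.38 ± 0.36), the lipid peroxide-reducing enzyme gene, and Txnip (1.48 ± 0.60) were also called. Txnip was not called without MITF KO replicate 2 (1.16), without TKO replicate 3 (1.36) or with the neighbour median subtracted (1.23). Bcl2, the anti-apoptotic gene, was the call among 13 BCL2 family genes (median 0.06), at 58.9, 55.4 and 54.4 CPM in MITF KO cells and 135, 132 and 130.4 CPM in TKO cells (1.22 ± 0.08).

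Fold changes also followed position along the chromosomes. Of 9318 placed genes with a mean of at least 5 CPM, 1579 (16.9%) lay where the median of the 100 nearest genes departed by at least 0.3 from the median of all, and 214 of the 919 called genes (23.3%) did so. Of those 214, 187 changed in the direction of their neighbours. All 323 genes of chromosome 19 lay in such a stretch, with a median log2 fold change of -0.49, and the medians of chromosomes 1 and 16 were 0.38 and 0.33. With the neighbour median subtracted from each gene 670 genes were called up and 464 down. Differences in chromosome copy number between the lines were not measured here, and the part of position in single calls was not tested beyond this subtraction.

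**Figure D3:**
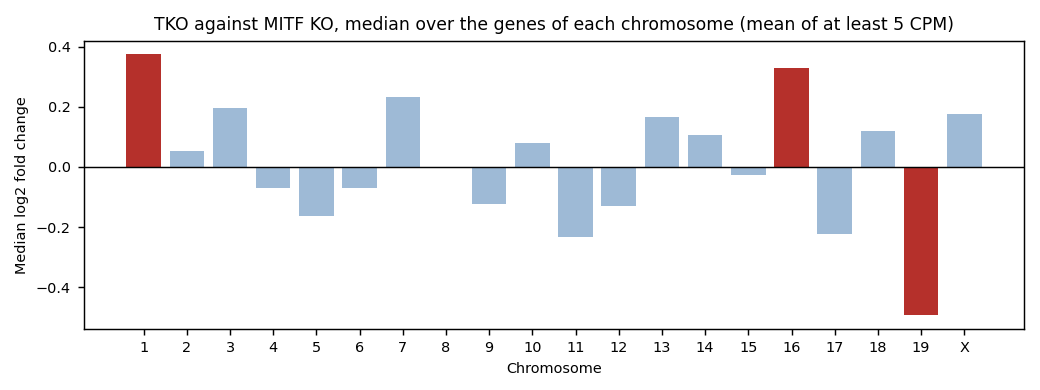
Median log2 fold change of the TKO against the MITF KO over the genes of each chromosome with a mean of at least 5 CPM (bars; red where the median is at least 0.3 from 0). Chromosome 19 lies lowest at -0.49, and chromosomes 1 and 16 highest at 0.38 and 0.33.

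The loss of TFEB and TFE3 was then compared with the same loss in cells that keep MITF, as the TKO against the MITF KO less the TFEB/TFE3 DKO against parental cells. This difference was at least 2-fold with an adjusted p under 0.05 upward in 972 genes (8.09% of those tested) and downward in 782 (6.51%). The pigment genes showed the difference most evenly, downward in 14 of the 18 members and upward in none. With MITF present their median change was 0.10, and without MITF it was -1.61. Tyr read 131 ± 4.13 CPM in parental cells and 141 ± 15.6 CPM in TFEB/TFE3 DKO cells, and the difference between the losses was -3.68 ± 0.21 on the log2 scale (adjusted p 2.6e-12).

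ATF4 response genes differed downward in 22 of 41, with a median of 0.26 where MITF was present and -0.73 where it was not. Trib3 read 66.1 ± 7.47 CPM in parental cells and 111 ± 8.66 CPM in TFEB/TFE3 DKO cells, so its change was 0.75 with MITF and -3.37 without, a difference of -4.12 ± 0.17 (adjusted p 2.4e-14). Ppargc1a followed the same course, at 1.17 with MITF and -2.80 without, and its difference was -3.97 ± 0.17 (adjusted p 4.3e-14). The changes of both genes had opposite signs in the presence and absence of MITF.

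Interferon-stimulated genes differed upward in 50 of 73, with medians of -0.57 with MITF and 0.87 without. For Isg15 the changes were -0.92 with MITF and 2.62 without, a difference of 3.54 ± 0.37 (adjusted p 7.6e-08). Contractile actin genes differed upward in 14 of 32 and downward in 1, undifferentiated markers upward in 12 of 19 and downward in 2, and glycolysis and hypoxia genes upward in 1 and downward in 15 of 44. Lysosomal hydrolases differed upward in 3 and downward in 5 of 52, and autophagy genes upward in 1 and downward in 4 of 54.

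**Figure D4:**
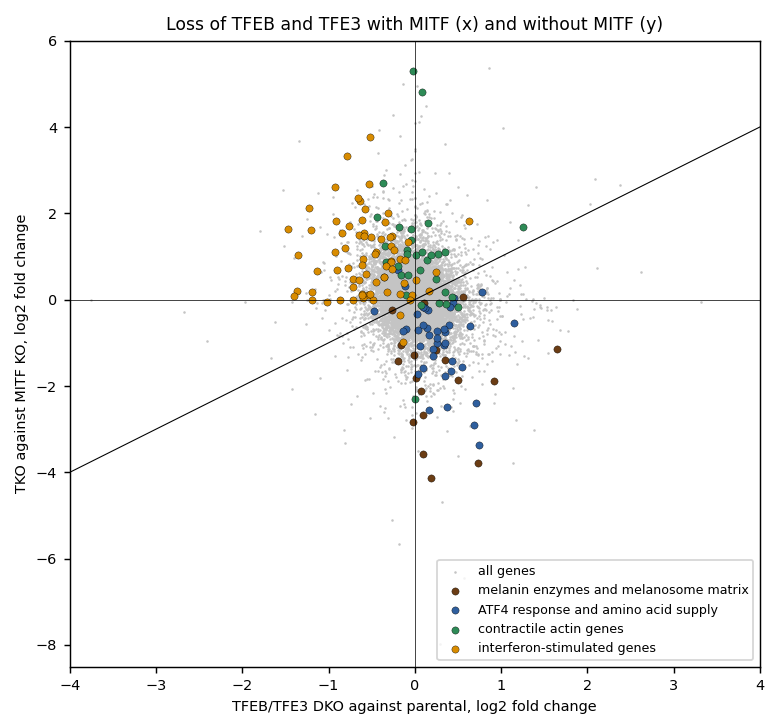
Log2 fold change on loss of TFEB and TFE3 in cells with MITF (x axis, TFEB/TFE3 DKO against parental) and without MITF (y axis, TKO against MITF KO); grey points are all 12010 genes, coloured points 4 gene lists, and the diagonal marks equal change. Counting only members at least 2-fold from the diagonal with an adjusted p under 0.05 (limma), 14 of 18 melanin genes lie below it. By the same rule 22 of 41 ATF4 response genes lie below it, and 50 of 73 interferon-stimulated genes above it.

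Finally, the TKO was compared with what the single losses of TFEB and of TFE3 in MITF-free cells would add up to on the log2 scale, using the MITF/TFEB DKO and the MITF/TFE3 DKO. The TKO lay at least 2-fold above that sum with an adjusted p under 0.05 in 404 genes (3.36% of those tested) and below it in 556 (4.63%). Under quantile normalization of the libraries the counts were 544 above and 454 below, so the balance of directions depended on the scaling.

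For the pigment genes the TKO was close to the loss of TFEB alone. Their median change was -1.44 in MITF/TFEB DKO cells and -0.09 in MITF/TFE3 DKO cells, each against the MITF KO, beside -1.61 in the TKO, and 3 of the 18 lay below the sum. Tyr read 12.8 ± 1.16 CPM in MITF/TFEB DKO cells and 101 ± 17.6 CPM in MITF/TFE3 DKO cells, and the departure from the sum was -0.42 ± 0.21 (adjusted p 0.14). Ppargc1a read 55.6 ± 8.71 and 193 ± 25.7 CPM in the same lines (departure 0.56 ± 0.17, adjusted p 0.02). ATF4 response genes had medians of -0.98 on loss of TFEB and -0.18 on loss of TFE3, and 2 lay above and 2 below the sum.

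Of 52 lysosomal hydrolases and activators 3 lay below the sum and 1 above it, against 4.63% and 3.36% of all genes. None of the 19 V-ATPase subunits met the rule in either direction. Ctsa was lower in the TKO than in the other MITF-free lines, at 98.9 ± 5.04 CPM in MITF/TFEB DKO cells, 131 ± 16.7 CPM in MITF/TFE3 DKO cells, 119 ± 4.67 CPM in MITF KO cells and 46.1 ± 1.48 CPM in TKO cells, which put it -1.21 ± 0.11 from the sum (adjusted p 2.6e-08). Tcirg1 was also lowest in the TKO, at 144 ± 16.8, 124 ± 22, 148 ± 9.89 and 59.6 ± 0.982 CPM in the same order. Its departure (-0.98 ± 0.18, adjusted p 2.0e-04) was under 2-fold and not called. Scd1 showed the opposite, since each single loss brought it to 5.57 ± 0.859 and 6.79 ± 0.851 CPM, near the 8.27 ± 1.05 CPM of the TKO, and the departure was 2.06 ± 0.19 (adjusted p 1.3e-08).

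Interferon-stimulated genes departed furthest, below the sum in 69 of 73 and above it in none. Each single loss stood far above the MITF KO, with median changes of 4.50 in MITF/TFEB DKO cells and 3.71 in MITF/TFE3 DKO cells, whereas the TKO was 0.87 above it. Isg15 read 742 ± 193 CPM in MITF/TFEB DKO cells, 668 ± 174 CPM in MITF/TFE3 DKO cells, 5.30 ± 0.689 CPM in MITF KO cells and 37.6 ± 1.92 CPM in TKO cells (departure -10.93 ± 0.37, adjusted p 3.3e-17). Rtp4, an interferon-induced chaperone gene, read 262 ± 6.44, 223 ± 9.65, 1.62 ± 0.324 and 5.91 ± 0.677 CPM in the same order. The MITF KO and the TKO were the lines low for these genes, and the MITF KO enters every term of this comparison. Because each single loss raised these genes from a low level, a TKO equal to either double knockout would also lie below the sum. The Isg15 changes were 6.85 on loss of TFEB and 6.70 on loss of TFE3. The count and sizes of these departures do not by themselves tell how far the TKO lay below the double knockouts. Class I presentation genes lay below the sum in 13 of 18.

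The Y RNA genes showed the reverse pattern. Rny3, a small noncoding RNA bound by Ro60, read 113 ± 8.99 CPM in MITF KO cells and 248 ± 25.5 CPM in TKO cells, against 9.79 ± 1.01 CPM in parental cells, 18.6 ± 1.26 CPM in MITF/TFEB DKO cells and 7.71 ± 1.43 CPM in MITF/TFE3 DKO cells, and lay 7.38 ± 0.33 above the sum (adjusted p 1.5e-14). Rny1 read 26.6 ± 3.74 CPM in the MITF KO, 78.6 ± 8.18 CPM in the TKO and 4.47 ± 0.666 CPM in parental cells.

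**Figure D5:**
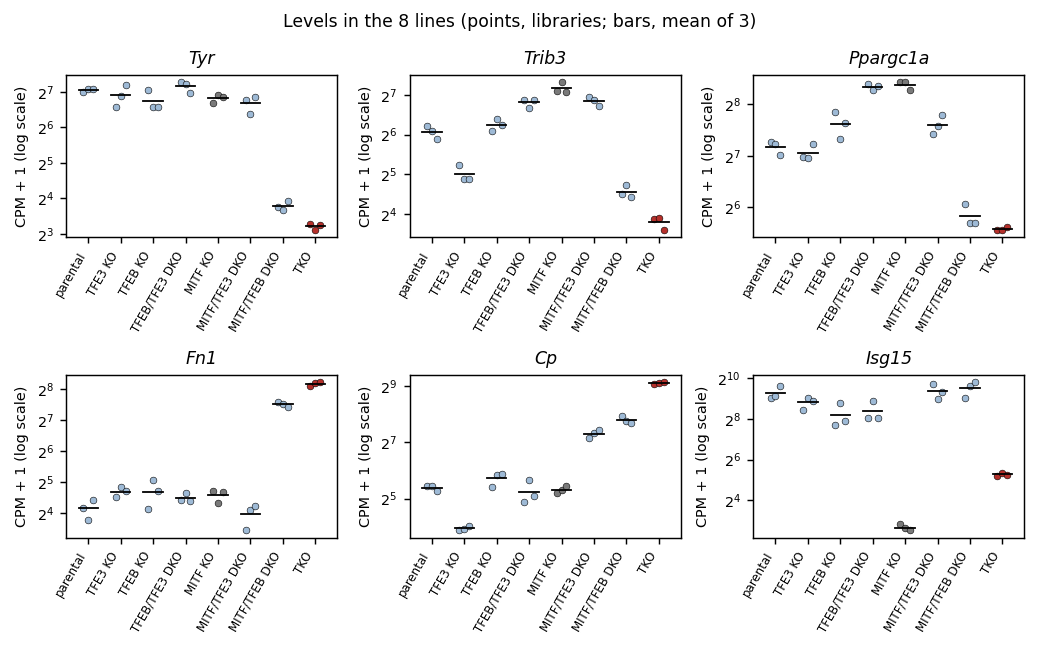
Levels of Tyr, Trib3, Ppargc1a, Fn1, Cp and Isg15 in the 8 lines (y axis, CPM + 1 on a log scale; points are libraries and bars the mean of 3; red, TKO; grey, MITF KO). Tyr, Trib3 and Ppargc1a are low and Fn1 high in the MITF/TFEB DKO as well as in the TKO, Cp rises in both MITF double knockouts, and Isg15 is lowest in the MITF KO and next lowest in the TKO.

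Some of the genes named share their 3′ end region with another gene on the opposite strand, among them Acta2 with Stambpl1, Cebpd with Spidr, Cp with Hps3, Cxcl10 with Art3 and Car14 with Aph1a. Whether strand was used in counting is not given in the sources used here, and values of these genes are uncertain to that extent. Pmp2, Cdkn1c, Rny3, Mndal and Dipk1b overlap another annotated gene on the same strand.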

How the data were processed

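RNA of 24 B16F10-luc2 libraries (8 lines, 3 each) was prepared with the QuantSeq Forward 3′ kit. Per the submitters' processing notes, reads were checked with FastQC 0.11.9, trimmed with Trim Galore 0.6.5 and cutadapt 2.10, and aligned to mm39 with STAR 2.7.8a; the counting tool, annotation and gene filter are not given in the sources used here. The deposited signal is one value per gene and library, made by the authors with edgeR as TMM-scaled CPM. Totals of the scaled values ran from 933263 to 1081081 per library. Whole reads were recovered from the value of 1 read in each library, and over 99.99% of values came out whole in every library (within 0.1 read).

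Groups were taken from the genotype labels, and 0 columns belonged to other samples. The main test was limma 3.58.1 (R 4.3.3) with a variance trend on log2(CPM + 1) over all 24 libraries and 12010 genes, with 16 residual degrees of freedom. Genes were called at a fold of at least 2 and p under 0.05 in the TKO against the MITF KO, and at 2-fold and a Benjamini-Hochberg adjusted p under 0.05 for the differences between losses. Tests were two-sided. edgeR 4.0.16 quasi-likelihood on the recovered reads, other pseudocounts (0.25 and 5), filters, scalings, a replicate block and the omission of each replicate were the alternatives. The scripts were tested on simulated data.

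The members, the 34 gene lists and the rule for named genes were chosen with earlier results of these data known. The named genes were the targeted genes, the 12 largest rises and falls (adjusted p under 0.05, libraries not overlapping, at least 5 CPM in the higher line, no predicted genes), up to 4 called members of each list (2 where none was called), and the 5 most positive and negative genes of each difference. Further list members are given by value alone and were chosen after their values were seen. Positions and promoters of 11661 genes came from GENCODE M39 on GRCm39, the build of the authors, matched by symbol. Coordinates count from 1. No fold change is given where a line had 3 reads or fewer in each of its libraries, other than as a bound against 3 reads per library, and fitted differences between responses that involve such a line depend on the pseudocount.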

Additional observations from a re-analysis of the deposited data

Results flagged for a closer look

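Genes whose response to the loss of TFEB and TFE3 differed most between cells without and with MITF were singled out because the difference itself was tested (adjusted p under 0.05, limma). Among genes also called in the TKO against the MITF KO, the most positive differences on the log2 scale were Sorbs2 5.32, Gm773 5.13, Slc9b1 5.02, Gal3st2 4.92 and Acta2 4.72. The most negative were Lgals3 -8.27, Car14 -7.01, Fam111a -5.48, Eps8 -5.00 and Nr4a3 -4.91. Sorbs2, Gal3st2, Acta2 and Gm773 were near 0 in parental cells and the TFEB/TFE3 DKO, Gm773 also in the MITF KO, and Lgals3 and Fam111a were near 0 in the TKO, so these fitted differences depend on the pseudocount and are not bounds. Gm773, a predicted gene on the X chromosome, had no read in the MITF KO and was at least 219-fold higher in the TKO against a floor of 3 reads per library.

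Departures of the TKO from the sum of the single losses of TFEB and TFE3 without MITF were likewise tested. The most positive were Rny3 7.38, Rny1 5.71, Tagln2 5.51, Neurl1b 4.0 and Dipk1b 3.58, and the most negative were the interferon-inducible genes Mndal -14.18, Ifi203 -12.94, Apol9b -12.86, Apol9a -12.43 and Rtp4 -11.68. Mndal overlaps another annotated gene on its strand, and Apol9a and Apol9b are near-identical copies. On the log2 scale Ifi203 rose by 8.35 on loss of TFEB and by 7.27 on loss of TFE3. A TKO equal to either double knockout would therefore also lie far below its sum.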

How the results depend on the processing

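No value changed sign when called. The numbers of genes called in the TKO against the MITF KO (760 up, 545 down) stayed within 1.5 times under the other scalings, the lower pseudocount, the filter at 5 CPM, the fit of the lines compared alone, the fit without a variance trend and the subtraction of neighbour medians, and edgeR called 1063 up and 844 down. A pseudocount of 5 gave 396 up and 277 down, 83 list members up against 136, 541 up and 405 down for the difference with MITF status, and 178 up and 271 down for the departure from the sum, for which the filter at 5 CPM gave 328 down against 556. Omitting a replicate gave 686 to 829 up and 527 to 575 down, 836 to 1219 up and 763 to 858 down for the difference, 372 to 482 up and 533 to 663 down for the departure, and 121 to 142 up and 86 to 97 down among list members. The cause was not tested, other than that a larger pseudocount shrinks changes of low genes and the filter tests fewer genes. Of 149 named values 105 kept their call under every alternative other than omitted replicates. Omission of a single library took further genes just under 2-fold, namely Atp6v0b (-0.99), Ddit4 (-0.99) and Kif20a (0.99) without MITF KO replicate 2, Dgat2 (0.80) without MITF KO replicate 3, Ctns (-0.97) without TKO replicate 2 and Rrp1b (-0.99) without TKO replicate 3. The differences of Acta2 and Gal3st2 with MITF status were 1.76 and 4.07 in edgeR and not called there, and both genes are at 0 in parental cells.

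Same-numbered TKO and MITF KO libraries were not paired (correlations of their deviations -0.13, -0.03 and 0.20), and with a replicate block 761 genes were called up and 545 down. Low reads limit genes near 0: 25 upregulated genes had at most 3 reads in every MITF KO library and 24 downregulated genes in every TKO library.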
